A study of Sus scrofa with 16 samples.

Results

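DMBT1 and SFTPD encode secreted proteins that bind bacteria on mucosal surfaces, and their transcripts were followed here in the small intestine of preterm piglets given antibiotics or saline. Both genes were selected on their lower values with antibiotics, so that difference is described here without a test, and tests are given for the comparisons between intestinal segments. The segment comparisons use the same arrays, so their tests are not independent of the selection. All probe sets (groups of short probes that report 1 transcript) annotated with either gene symbol were taken. These were 3 of 23999 probe sets on the array, 1 for DMBT1 and 2 for SFTPD, and they stand for 2 of 6765 genes with a probe set. All 3 passed the filter for testing, a log2 value above 5 on at least 4 of the 16 arrays.

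The piglets, a Landrace x Large white x Duroc cross from 2 sows, were born by caesarean section at gestation day 105. They received 3 days of parenteral nutrition and 2 days of enteral formula. Of 24 piglets in the study 11 received ampicillin, gentamicin and metronidazole, orally and intramuscularly, 2 times daily from birth, and 13 controls received saline. Small intestine was taken on day 5. There were 4 arrays in each of 4 groups, namely control proximal, antibiotics proximal, control distal and antibiotics distal intestine. Every piglet of each group was preterm, formula-fed and taken from the same pair of litters, so no term-born or germ-free group is part of the comparison. By the number in the sample titles, read as the piglet's, the arrays came from 9 piglets, of which 7 (4 control and 3 antibiotics) had both segments.

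DMBT1 (deleted in malignant brain tumours, also known as salivary agglutinin or gp340) is a large glycoprotein built of repeated scavenger receptor cysteine-rich domains. It is secreted by epithelial cells of the gut, salivary glands and airways, and it binds and aggregates bacteria. SFTPD (surfactant protein D) is a collectin, a soluble lectin with a collagen-like stem that recognises sugars on microbes and aids their clearance. It is best known from the lung, is also made by other mucosal epithelia, and binds DMBT1, which was described as gp340 for that property.

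The tissue carried epithelial transcripts throughout. The mean of 8 epithelial markers lay between 11.3 and 12.9 (log2) on all 16 arrays. The 3 measured lung markers had a mean of 2.18 to 2.27 and the 4 measured pancreatic markers one of 2.14 to 2.24 over the arrays, at or close to the lowest value in the data, 2.14. SFTPA1, another surfactant collectin, had a mean of 2.14 in each of the 4 groups. The arrays held between 45.1% and 46.5% of their probe sets above log2 5. RNA integrity, taken as the signal at the 5′ end minus that at the 3′ end for the array's GAPDH and actin controls, was -3.79 ± 0.89 in control proximal, -3.43 ± 0.65 in antibiotics proximal, -4.28 ± 0.46 in control distal and -4.70 ± 0.90 in antibiotics distal tissue (log2, SD, n = 4 each).

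DMBT1 gave a bright signal in control intestine and was lower in every antibiotics array of the same segment. In proximal tissue the log2 values of DMBT1 were 14.01, 13.64, 13.92 and 14.58 in control piglets 83, 88, 89 and 92, a mean of 14.04 ± 0.39 (SD, n = 4). With antibiotics they were 11.97, 10.49, 11.48 and 11.45 in piglets 86, 87, 95 and 98, a mean of 11.35 ± 0.62 (SD, n = 4). The lowest control array, of piglet 88, lay 1.67 above the highest antibiotics array, of piglet 86, so the groups did not overlap.

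In distal tissue DMBT1 was 13.58, 12.50, 13.90 and 13.72 in control piglets 83, 88, 89 and 92, a mean of 13.42 ± 0.63 (SD, n = 4). With antibiotics it was 9.83, 8.76, 9.11 and 9.19 in piglets 85, 86, 87 and 95, a mean of 9.22 ± 0.44 (SD, n = 4). Control piglet 88 was the lowest control here as in proximal tissue, and it still lay 2.67 above the highest antibiotics array. All 16 DMBT1 values were above log2 5, and the brightest was 1.83 below the highest value on its array.

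The first SFTPD probe set, the one with the higher mean, was 8.61, 8.17, 9.37 and 7.58 in proximal tissue of control piglets 83, 88, 89 and 92, a mean of 8.43 ± 0.76 (log2, SD, n = 4). With antibiotics it was 3.49, 3.76, 4.13 and 5.70 in piglets 86, 87, 95 and 98, a mean of 4.27 ± 0.99 (SD, n = 4). Only piglet 98 had a value above log2 5 among the proximal antibiotics arrays, and the groups were 1.88 apart at their nearest arrays.

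In distal tissue the first SFTPD probe set was 8.77, 9.63, 9.29 and 9.63 in control piglets 83, 88, 89 and 92, a mean of 9.33 ± 0.41 (log2, SD, n = 4). With antibiotics it was 4.41, 2.61, 6.42 and 4.88 in piglets 85, 86, 87 and 95, a mean of 4.58 ± 1.57 (SD, n = 4). The antibiotics arrays were spread from 2.61 to 6.42, with only piglet 87 above log2 5, yet the highest of them was 2.35 below the lowest control. Where values lie under the filter level, the size of a fold depends on the background correction, so the SFTPD folds are less well determined than those of DMBT1.

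The second SFTPD probe set, whose probes may also match other transcripts, was 6.77, 6.43, 6.93 and 5.12 in control proximal tissue of piglets 83, 88, 89 and 92 and 6.67, 7.10, 7.28 and 7.12 in their distal tissue (log2). With antibiotics it was 3.41, 3.41, 3.74 and 4.09 in proximal tissue of piglets 86, 87, 95 and 98 and 3.34, 3.74, 4.47 and 4.50 in distal tissue of piglets 85, 86, 87 and 95. No antibiotics array reached log2 5, so this probe set passed the filter through control arrays alone. Against that level the control mean was at least 2.48-fold higher in proximal and at least 4.12-fold higher in distal tissue. The array of control piglet 92 was the lowest proximal control for both SFTPD probe sets.

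**Figure D1:**
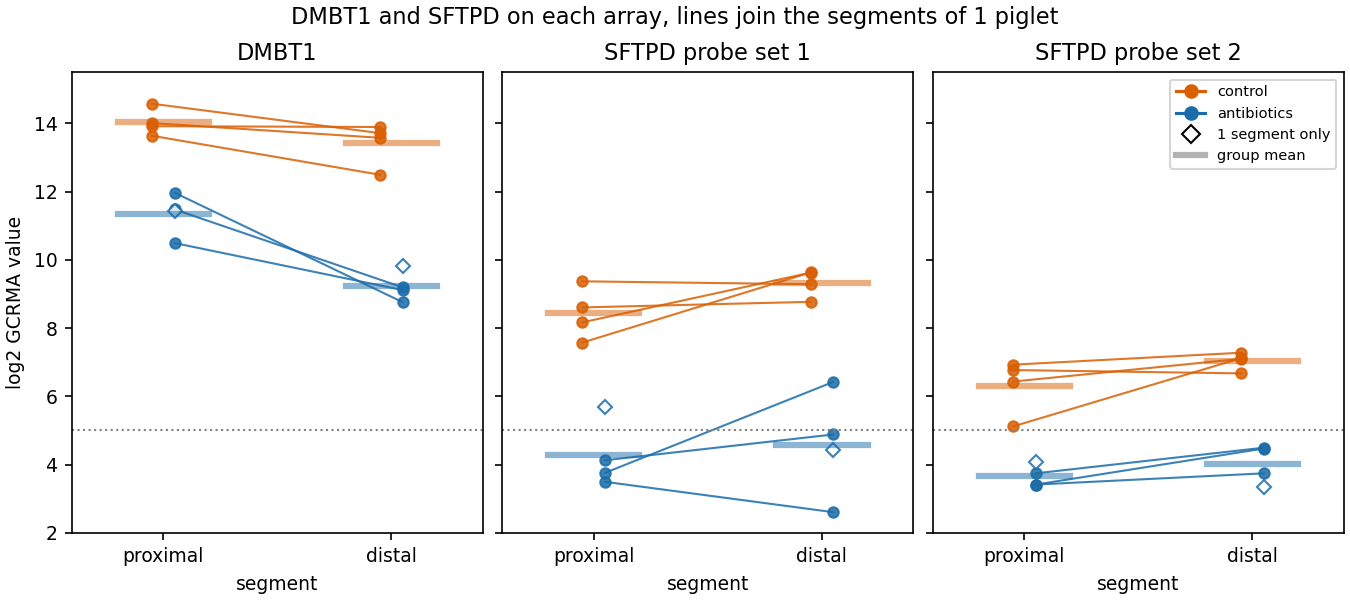
Log2 values (y axis) of DMBT1 and both SFTPD probe sets in proximal and distal intestine (x axis), 1 point per array, with control piglets in orange and antibiotics piglets in blue. Lines join the segments of 1 piglet, open diamonds are piglets with 1 segment, thick bars are group means and the dotted line is log2 5. In every panel and segment the control points lie above the antibiotics points, and DMBT1 drops from proximal to distal tissue with antibiotics (means 11.35 and 9.22).

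The differences that the choice of genes rests on were large in either segment. DMBT1 was 4.20 lower with antibiotics in distal tissue (log2, SE 0.36, an 18.4-fold difference) and 2.69 lower in proximal tissue (SE 0.36, a 6.45-fold difference). The first SFTPD probe set differed by -4.75 in distal (SE 0.65) and -4.16 in proximal tissue (SE 0.65), and the second by -3.03 (SE 0.36) and -2.65 (SE 0.36). Ordered from the most negative difference among 11538 tested probe sets, DMBT1 was number 21 and the SFTPD probe sets numbers 14 and 53 in distal tissue, and DMBT1 was number 44 and SFTPD numbers 8 and 45 in proximal tissue. In bulk tissue, fewer cells of a type and less RNA per cell cannot be told apart.

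Non-overlapping groups were not rare on the array. Every control array lay above every antibiotics array for 728 probe sets in distal tissue (6.31% of those tested) and for 201 in proximal tissue (1.74%). With the arrays of both segments pooled, a stricter rule, it was so for 45 (0.39%). The 3 probe sets of DMBT1 and SFTPD were among them. Since these genes were selected on these contrasts, nothing further is read from that count.

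Some markers of myeloid cells also fell with antibiotics. Of 3 tested neutrophil markers 2 fell in distal and 1 in proximal tissue, and of 5 tested macrophage and monocyte markers 2 fell, both in distal tissue. Over all tested probe sets 2.12% passed in distal and 0.147% in proximal tissue. For distal tissue NCF1 no longer passed in 7 and C1QC in 10 of 16 fits with 1 array left out, while S100A9 and CD163 passed in each. In proximal tissue S100A9 was lost in 12 of 16 such fits. The mean of 8 neutrophil markers, 5 of them below the filter, was 4.94 ± 0.78 in control and 3.17 ± 0.14 in antibiotics distal tissue, and 4.66 ± 0.61 and 3.38 ± 0.22 in proximal tissue (log2, SD, n = 4 each). The mean of 7 macrophage and monocyte markers was 6.63 ± 0.11 and 5.07 ± 0.31 in distal tissue, and 6.55 ± 0.32 and 5.84 ± 0.56 in proximal tissue, where 3 of the 5 tested had lower means, with a median difference of -0.22. Their part in the DMBT1 and SFTPD differences was not tested. The mean of the 8 epithelial markers was 11.82 ± 0.23 in control and 11.52 ± 0.10 in antibiotics distal tissue, and 12.16 ± 0.63 and 11.47 ± 0.30 in proximal tissue.

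DMBT1 was lower in distal than in proximal tissue of antibiotics piglets. The difference was -2.12 (log2, SE 0.36, 95% interval -2.89 to -1.36, limma adjusted p = 0.00285), a 4.36-fold difference, and the groups did not overlap. In this comparison 606 of 11538 probe sets passed an adjusted p of 0.05 (5.25%), 364 of them higher and 242 lower in distal tissue. The antibiotics distal and antibiotics proximal arrays of this comparison also enter the contrasts by which DMBT1 was selected. Its p is therefore not independent of that choice.

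In control piglets DMBT1 differed between segments by -0.62 (log2, SE 0.36, 95% interval -1.38 to 0.15, limma adjusted p = 0.774), and the arrays of the segments overlapped. Only 42 probe sets passed there (0.364%), or 74 with the piglet as a random block. The order of the DMBT1 group means was thus control proximal, control distal, antibiotics proximal and antibiotics distal, and only the first pair of neighbours overlapped, since control distal piglet 88 at 12.50 lay above antibiotics proximal piglet 86 at 11.97. On 336 probe sets called between the segments of antibiotics piglets, and little changed by antibiotics in proximal tissue, each array was given a position. It is the median share of the way from the antibiotics proximal to the antibiotics distal mean. Control distal arrays lay at 0.32 to 0.56, lowest in piglets 83 and 88. The antibiotics arrays define this scale, and where along the intestine the tissue was taken was not tested.

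SFTPD did not pass between the segments in either treatment. The first SFTPD probe set was 0.90 higher in distal tissue of control piglets (log2, SE 0.65, 95% interval -0.48 to 2.28, limma adjusted p = 0.862) and 0.31 higher in that of antibiotics piglets (SE 0.65, 95% interval -1.07 to 1.69, adjusted p = 0.878). The second probe set was 0.73 higher in control piglets (SE 0.36, adjusted p = 0.677), and in antibiotics piglets no array of it reached log2 5 in either segment. With only 1 of 4 antibiotics arrays above that level in each segment, a difference in the first probe set was hardly measurable there. In antibiotics piglets the interval of the first probe set reaches beyond 1 log2 unit in either direction. By mean, SFTPD was ordered control distal, control proximal, antibiotics distal and antibiotics proximal, with overlapping arrays between the segments of each treatment. In antibiotics piglets the difference changed sign with single arrays: it was -0.30 without the distal array of piglet 87 and 0.97 without that of piglet 86.

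The antibiotic difference of DMBT1 was larger in distal than in proximal tissue by 1.51 (log2, SE 0.51), and did not pass (limma adjusted p = 0.477). Over all tested probe sets 22 passed (0.191%), or 39 with the piglet as a random block. This term is built from both contrasts by which the genes were selected, so nothing is supported with it. For the first SFTPD probe set the corresponding term was -0.59 (SE 0.92, adjusted p = 0.954), with only 1 of 4 antibiotics arrays above log2 5 in each segment. For the second it was -0.38 (SE 0.52). No antibiotics array of that probe set reached log2 5, so no test of its term is given.

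Within piglets, distal minus proximal DMBT1 was -0.43, -1.14, -0.02 and -0.86 in control piglets 83, 88, 89 and 92 (log2). It was -3.21, -1.38 and -2.29 in antibiotics piglets 86, 87 and 95. DMBT1 was thus lower in the distal segment of 7 of 7 piglets, barely so in piglet 89. Each antibiotics piglet had a larger drop than each control piglet, on arrays by which DMBT1 was selected. How many of all tested probe sets do the same was not counted, so nothing further is read from either observation.

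The mean DMBT1 difference within piglets was -1.33 ± 1.10 (SD, n = 7; two-sided exact sign-flip permutation p = 0.0156, the smallest that 7 piglets allow, and 0.0469 adjusted over the 3 probe sets). It was -2.29 ± 0.92 in the 3 antibiotics and -0.62 ± 0.49 in the 4 control piglets. The difference of these means, -1.68, is again built from the arrays by which DMBT1 was selected and is a description. The sign-flip test uses such arrays too, among them those of the 3 antibiotics pairs. The 4 control pairs alone are too few for it to pass 0.05.

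For the first SFTPD probe set, distal minus proximal was 0.16, 1.46, -0.09 and 2.06 in control piglets 83, 88, 89 and 92 and -0.89, 2.66 and 0.76 in antibiotics piglets 86, 87 and 95 (log2). The mean was 0.87 ± 1.26 (SD, n = 7; two-sided exact sign-flip permutation p = 0.141), and the sign differed among piglets of either treatment. In antibiotics piglets 86 and 95 both segments lay under log2 5, so their signs and this test rest partly on values under the filter level. For the second probe set it was -0.10, 0.67, 0.35 and 2.00 in the control piglets, and 0.33, 1.06 and 0.75 in antibiotics piglets 86, 87 and 95. In its 3 antibiotics pairs both segments lay under log2 5, so no test of it is given.

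Subtracted within each piglet, the segment difference of DMBT1 was below that of SFTPD in 6 of 7 piglets, by a mean of 2.21 ± 1.44 (log2, SD, n = 7; two-sided exact sign-flip permutation p = 0.0312, in a test added after seeing the data). With 1 piglet left out in turn this p was 0.0625 in 6 of 7 cases and 0.0312, the smallest that 6 piglets allow, in the other. The SFTPD values of antibiotics piglets mostly lay under log2 5, and arrays by which both genes were selected enter the test. The comparison is thus a description, and nothing is supported with it. Piglet 87 had the largest SFTPD rise towards distal tissue, and piglet 86 the largest DMBT1 drop.

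**Figure D2:**
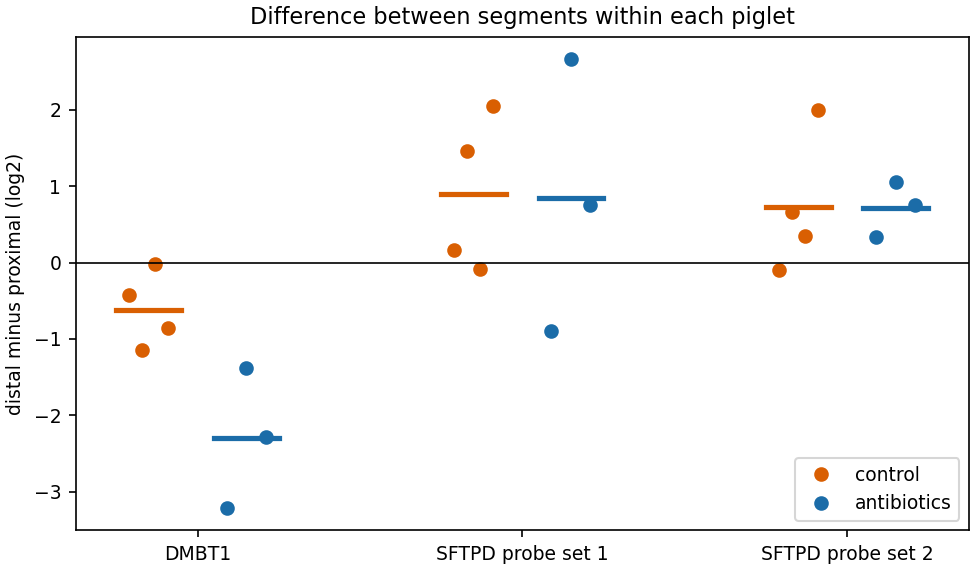
Distal minus proximal log2 difference (y axis) of DMBT1 and both SFTPD probe sets (x axis), 1 point per piglet with both segments, 4 control piglets in orange and 3 antibiotics piglets in blue, with bars at the treatment means. All 7 DMBT1 points lie below 0, with means of -0.62 and -2.29, while the SFTPD points lie on both sides of 0 with most above it.

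RNA integrity and markers of several cell types also moved between the segments of antibiotics piglets. With the 5′ minus 3′ measure as a covariate the DMBT1 difference was -2.09 (limma adjusted p = 0.023). Of 8 enterocyte markers, 2 fell from proximal to distal tissue of antibiotics piglets and 6 did not pass. Over all tested probe sets 5.25% passed in this comparison. APOA4, an apolipoprotein made by absorptive cells, was lower by 3.01 (log2, SE 0.51, adjusted p = 0.00304), and SLC5A1, the sodium and glucose cotransporter of the brush border, was lower by 3.46 (SE 0.63, adjusted p = 0.00416). The mean of the 8 markers was 13.46 ± 0.38 in proximal and 12.39 ± 0.22 in distal tissue of antibiotics piglets, and 12.84 ± 0.70 and 13.07 ± 0.42 in control piglets (log2, SD, n = 4 each). Of 4 goblet cell markers 2 rose towards distal tissue of antibiotics piglets, CLCA1 by 1.17 (adjusted p = 0.0301) and SPINK4 by 0.75 (adjusted p = 0.0307). FCGBP, another of the 4, went the other way by -1.16 and did not pass (adjusted p = 0.0598), so the goblet cell markers did not move together. With the 5′ minus 3′ covariate CLCA1 and SPINK4 did not pass (limma adjusted p = 0.118 and 0.126), while APOA4 and SLC5A1 did (0.0331 and 0.0415). CLCA1 and SPINK4 were each lost in 5 of 16 fits with 1 array left out, and APOA4 and SLC5A1 in 0. All 5 tested macrophage and monocyte markers had lower distal means in antibiotics piglets. Of these C1QC alone fell, though not with the covariate (limma adjusted p = 0.0541). Their part in the DMBT1 difference was not tested.

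Over the 16 arrays DMBT1 and the first SFTPD probe set correlated at Pearson r = 0.781. Both were selected for low values with antibiotics, so a high r over all arrays follows from that choice. After the 4 group means were subtracted r was -0.01, and it was -0.29 for DMBT1 and the second SFTPD probe set. With antibiotics, the first SFTPD probe set was above the filter level on only 1 of 4 arrays in each segment. The second was above it on no antibiotics array. The SFTPD deviations in antibiotics groups thus came mostly from values under that level. For this reason these r do not decide whether SFTPD varied with DMBT1 within groups. The points share the 4 groups, and segments of 1 piglet are not independent. The SFTPD probe sets correlated with each other at 0.959, and at 0.668 after subtracting group means.

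**Figure D3:**
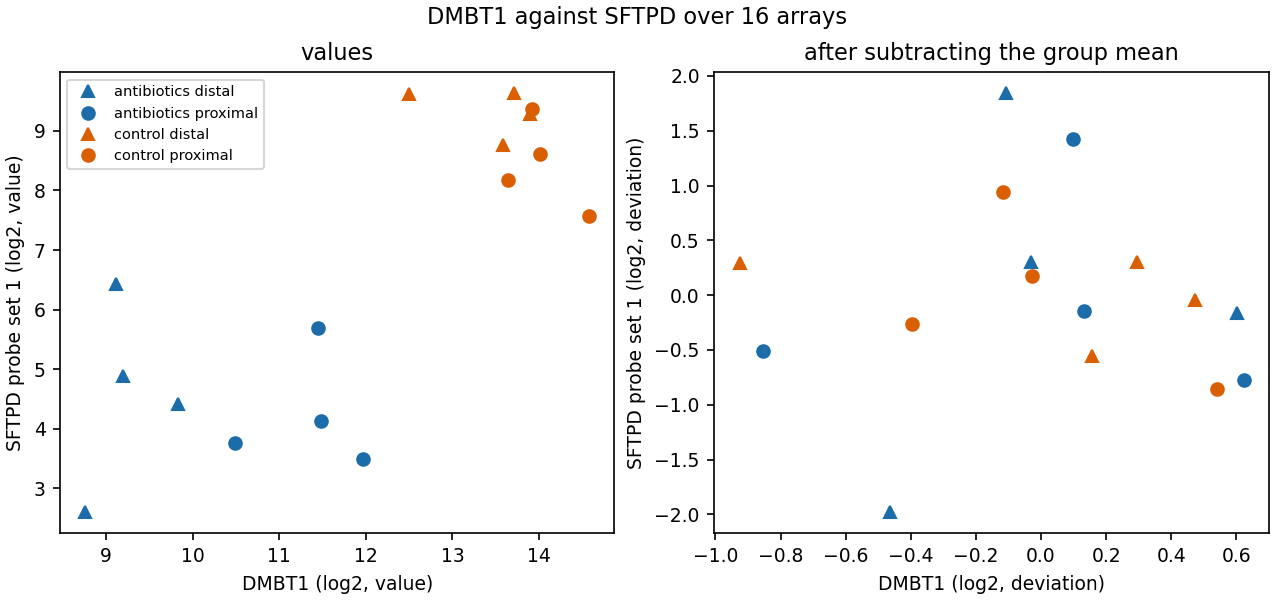
DMBT1 (x axis, log2) against the first SFTPD probe set (y axis, log2) on 16 arrays, as measured on the left and with each group mean subtracted on the right, with control in orange, antibiotics in blue, circles for proximal and triangles for distal tissue. Control and antibiotics arrays form separate clouds on the left (r = 0.781), and the cloud on the right has no slope (r = -0.01).

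The genes whose pattern over the 16 arrays was most like DMBT1 were C4BPB (Pearson r = 0.925), PSMB8 (0.923), FMO1 (0.912), SAMHD1 (0.912), CFB (0.911) and ALOX5AP (0.906). C4BPB is a chain of the complement regulator C4b-binding protein, PSMB8 a subunit of the immunoproteasome, CFB complement factor B and SAMHD1 a nucleotide hydrolase that restricts viruses. FMO1 is a flavin monooxygenase, and ALOX5AP helps leukotriene synthesis. Only 7 genes were above 0.9.

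Most like SFTPD were C5 (r = 0.886), OLFM4 (0.879), S100A9 (0.864), CFB (0.847), CD55 (0.832) and EHF (0.824), and 0 genes were above 0.9. C5 is the complement component from which the anaphylatoxin C5a is cut, CD55 a cell surface inhibitor of complement, OLFM4 a glycoprotein of intestinal crypt cells, and EHF an epithelial transcription factor. CFB was the only gene among the 6 most alike of both DMBT1 and SFTPD. Since DMBT1 and SFTPD were selected for low values with antibiotics, genes like them over all arrays are low there too, and their differences are given without a test.

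CFB differed between antibiotics and control by -2.71 in distal and -2.57 in proximal tissue (log2). C4BPB differed by -2.91 and -2.81, and C5 by -4.20 and -4.60. ALOX5AP had a larger difference in distal (-2.28) than in proximal tissue (-0.73), which is also the order for DMBT1, whereas SAMHD1 had the reverse order (-2.25 and -2.70).

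Between the segments of antibiotics piglets, where DMBT1 differed by -2.12, the genes most like it differed by -1.21 (ALOX5AP), -1.20 (C4BPB), -1.11 (FMO1), -1.03 (PSMB8), -0.46 (CFB) and -0.36 (SAMHD1) (log2, distal minus proximal). Those most like SFTPD, besides CFB, differed by -0.93 (S100A9), -0.17 (OLFM4), -0.02 (C5), 0.01 (EHF) and 0.22 (CD55). FMO1 and EHF lay under log2 5 on all 8 antibiotics arrays, and PSMB8 and S100A9 on all 4 of distal tissue, so their values are not measured above the filter level. The likeness was taken from the same arrays, so these values too are given without a test.

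**Figure D4:**
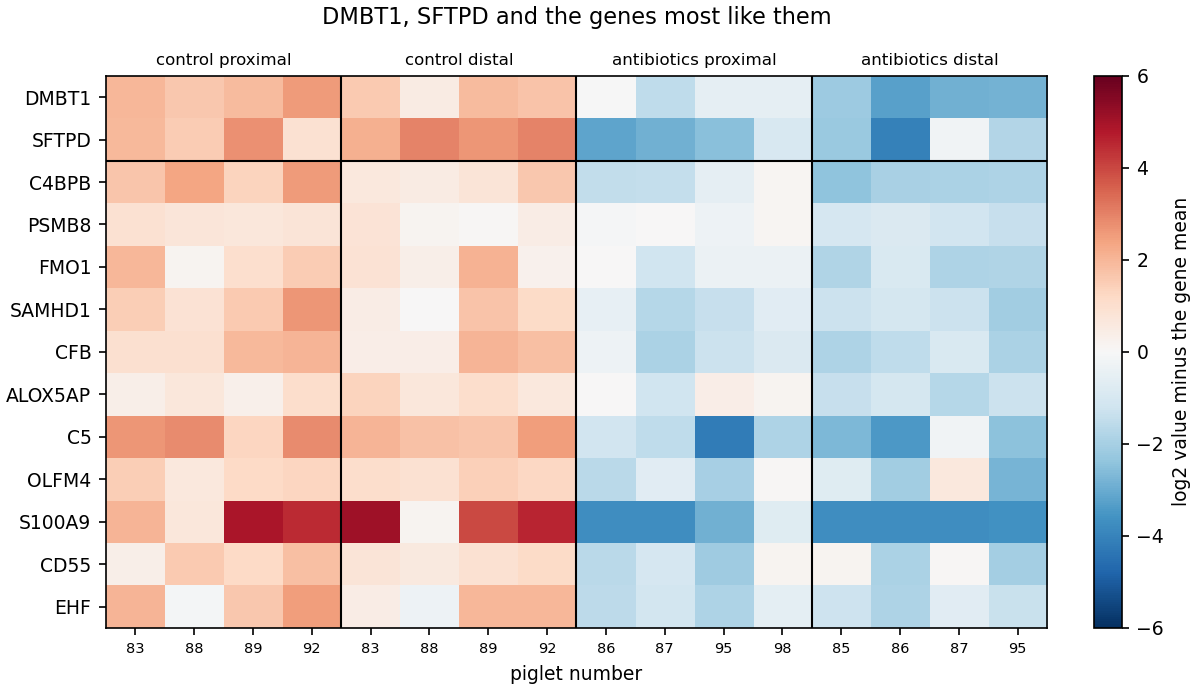
Log2 value minus the mean of the gene over 16 arrays (colour, red above and blue below the mean) for DMBT1, SFTPD and the 11 genes most like either (rows), on each array by piglet number (columns), with vertical lines between the 4 groups. The columns of control arrays are mostly red and those of antibiotics arrays mostly blue, and DMBT1 is bluer in antibiotics distal than in antibiotics proximal columns.

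After subtracting group means, the genes most like DMBT1 were HSP90AA1 (r = 0.894), FKBP2 (0.888), SDE2 (0.864), WDR26 (0.860), DCTN5 (0.842) and TNFRSF1A (0.835). HSP90AA1 is a cytosolic chaperone, FKBP2 a prolyl isomerase of the endoplasmic reticulum and TNFRSF1A a receptor for tumour necrosis factor. Those most like SFTPD were ING3 (0.827), LOX (0.761), RUNX1T1 (0.737), MS4A2 (0.737), PPP4R3B (0.728) and PIAS1 (0.715). None of these 12 was among the most alike over all arrays, and each value rests on the small deviations of 16 arrays.

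Of the families to which the genes belong, few other members were measured, and the lists were chosen with earlier results of these data known. In the scavenger receptor cysteine-rich family 20 genes were listed, 7 had a probe set, and 2 besides DMBT1 were tested. CD163, through which macrophages take up haemoglobin, fell in distal tissue from 9.03 ± 1.58 to 4.03 ± 0.40 (log2, SD, n = 4 each), at least 16.4-fold (limma adjusted p = 0.0056), in a comparison where 245 of 11538 probe sets passed (2.12%).

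In proximal tissue CD163 was 8.58 ± 1.83 in control and 4.81 ± 1.28 in antibiotics piglets (adjusted p = 0.0959), where 17 probe sets passed (0.147%). SCARA5, a ferritin receptor, was 5.31 ± 0.62 in control and 3.24 ± 0.92 in antibiotics distal tissue (adjusted p = 0.0805), and it differed by -1.43 in proximal tissue (adjusted p = 0.332). Neither gene passed between segments. MARCO and CD5L, further members of the family, had means of 2.14 to 2.28 in all groups and were not tested.

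Among collectins, ficolins and the lectin pathway, 12 genes were listed and 5 had a probe set, and besides SFTPD only FCN2 was tested. FCN2, a ficolin that activates complement on microbial sugars, was 12.90 ± 0.44 in control and 12.15 ± 0.49 in antibiotics distal tissue (log2, SD, n = 4 each, difference -0.74, limma adjusted p = 0.398), and it differed by -0.47 in proximal tissue (adjusted p = 0.678). The unadjusted p was not under 0.05 in either segment. FCN2 was lower in distal than in proximal tissue of antibiotics piglets by 1.53 (SE 0.40, adjusted p = 0.0361), and in control piglets the difference was -1.26 (SE 0.40, adjusted p = 0.289). The former did not pass with the 5′ minus 3′ covariate (adjusted p = 0.219) or in 6 of 16 fits with 1 array left out (up to 0.111). MBL2, the mannose-binding lectin, and SFTPA1 had means of 2.14 in every group.

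Other secreted lectins and bacteria-binding proteins had smaller or more variable differences. Of 23 listed, 11 had a probe set and 6 were tested, and 0 of 6 passed in distal or proximal tissue with limma, with 3 of 6 at an unadjusted p under 0.05 in each. All 6 had lower distal means with antibiotics, with a median of -0.93 against 0.0036 over all tested probe sets, and 4 of 6 had lower proximal means, with a median of -0.80 against -0.07.

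BPI, a neutrophil and epithelial protein that binds endotoxin, differed by -2.35 in distal (adjusted p = 0.182) and -2.64 in proximal tissue (adjusted p = 0.213). CLU (clusterin), a secreted chaperone, differed by -1.52 (adjusted p = 0.273) and -2.26 (adjusted p = 0.182). The lectins REG4, LGALS3 and LGALS4 differed by -0.87, -0.40 and -0.46 in distal tissue, and FCGBP, a goblet cell mucus protein, by -0.99 (adjusted p = 0.153). LBP, the endotoxin carrier, lay below the filter, with means of 4.94 in control and 2.17 in antibiotics proximal tissue.

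**Figure D5:**
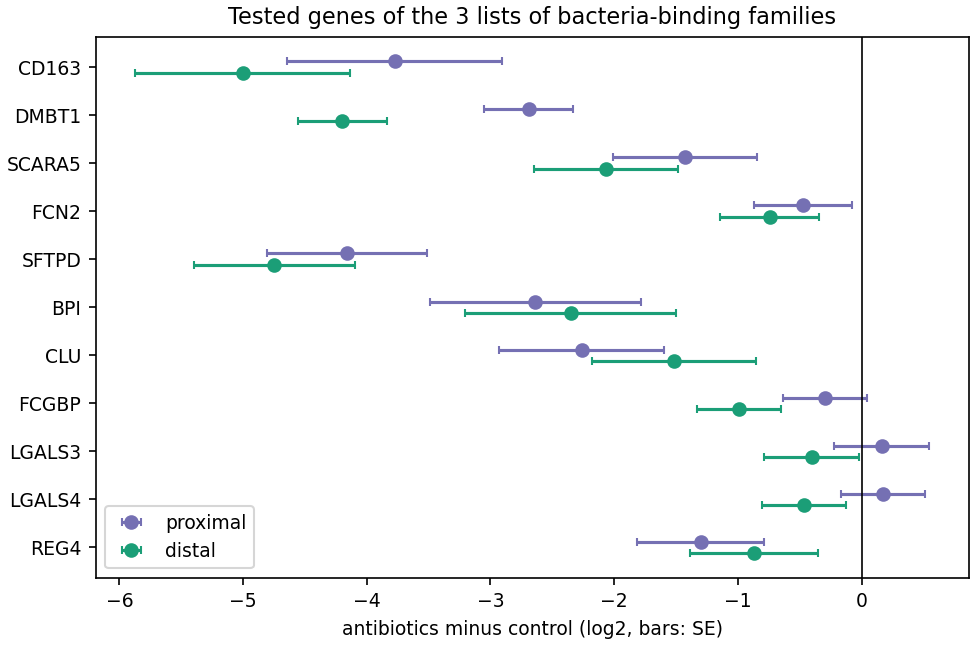
Antibiotics minus control difference (x axis, log2, points with SE bars, 4 arrays per group) in proximal (purple) and distal (green) tissue for DMBT1, SFTPD and the 9 other tested genes of the 3 lists of bacteria-binding families (y axis). DMBT1 (-4.20), SFTPD (-4.75) and CD163 have the most negative distal differences, and LGALS3 and LGALS4 lie near 0.

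Genes whose products bind DMBT1 or SFTPD, or work beside them at the mucosa, were partly lower. Of 31 listed 23 had a probe set and 15 were tested, and in distal tissue 5 fell, 0 rose and 10 did not pass, with a median difference of -1.38, against 2.12% called and a median of 0.0036 over all tested probe sets. The 5 were TLR2 and TLR4, receptors for bacterial lipoproteins and endotoxin, C1QC and C4A of the classical complement pathway, and S100A9, a calprotectin subunit of neutrophils. TLR4 and S100A9 lay under log2 5 on every antibiotics distal array. In proximal tissue S100A9 alone of the 15 passed (adjusted p = 0.0435, against 0.147% called over all), and the median was -0.80.

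TLR2 was 8.78 ± 0.80 in control and 4.77 ± 0.62 in antibiotics distal tissue (log2, SD, n = 4 each, SE of the difference 0.45, limma adjusted p = 0.000166). It was also 3.48 higher in distal than in proximal tissue of control piglets (SE 0.45, adjusted p = 0.000601), where DMBT1 did not pass and had the lower mean in distal tissue. In distal tissue TLR4 was at least 1.31-fold lower with antibiotics, where no array exceeded log2 5 (adjusted p = 0.0174), and C4A differed by -3.49 (adjusted p = 0.0288) and C1QC by -2.05 (adjusted p = 0.0399).

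C1QC was lower in distal than in proximal tissue of antibiotics piglets by 2.46 (log2, SE 0.49, limma adjusted p = 0.007), as DMBT1 was, but not with the 5′ minus 3′ covariate (adjusted p = 0.0541). For antibiotics against control in distal tissue, TLR2 and S100A9 passed in each of 16 fits with 1 array left out, while C1QC was lost in 10, C4A in 5 and TLR4 in 3 of them. The adjusted p without the distal arrays of control piglets 83 and 88 was 0.0547 for TLR4 and 0.13 for C1QC. In proximal tissue S100A9 was lost in 12 of 16 such fits. PIGR, the receptor that carries secretory antibodies, had means of 5.14 in control and 2.32 in antibiotics distal tissue (adjusted p = 0.169). Its antibiotics values lay close to the lowest in the data, so PIGR passed the filter through control arrays alone. In distal tissue TFF3, a goblet cell peptide, differed by -0.28 (adjusted p = 0.695) and CALR, a receptor for collectin stems, by 0.17 (adjusted p = 0.895).

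Receptors and transcription factors that regulate defence genes of the epithelium were tested for 20 of 56 listed genes. In distal tissue 4 fell, 1 rose and 15 did not pass, with a median of -1.30, and in proximal tissue 0 of 20 passed with limma, with 11 at an unadjusted p under 0.05. Over all tested probe sets 2.12% passed in distal and 0.147% in proximal tissue. Besides TLR2 and TLR4, which stand in both lists, TNFRSF1B, a receptor for tumour necrosis factor, fell by 2.55 (log2, SE 0.55, adjusted p = 0.0247) and JAK2, a cytokine receptor kinase, fell by 1.34 (SE 0.28, adjusted p = 0.0197). CEBPA, a transcription factor of differentiating cells, rose by 1.11 (SE 0.28, adjusted p = 0.0484).

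TNFRSF1B no longer passed in 5, JAK2 in 4 and CEBPA in 13 of 16 fits with 1 array left out. The number of regulators that passed in distal tissue was 1 to 11 in those fits and 10 without the distal arrays of control piglets 83 and 88. STAT3, which carries signals of interleukin 22 and interleukin 6 to the nucleus, differed by -1.49 (adjusted p = 0.14) and NFKBIA, an inhibitor induced by NF-kB, by -1.91 (adjusted p = 0.0742). IRAK1 and HNF4A differed by -0.33 and -0.34 (adjusted p = 0.772 and 0.683).

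Among the 4 genes on either side of DMBT1 and SFTPD in the RefSeq annotation of the pig genome, none that was tested passed. Over all tested probe sets 2.12% passed in distal and 0.147% in proximal tissue, so with so few neighbours tested nothing is read from this. The others lay below the filter or had no probe set, among them all that follow DMBT1 or SFTPD. HTRA1 beside DMBT1 differed by -0.32 in distal and -0.09 in proximal tissue (log2, limma adjusted p = 0.619 and 0.931), and TACC2 by 1.01 and -0.21 (adjusted p = 0.175 and 0.87). TMEM254 beside SFTPD differed by -0.27 and -0.52 (adjusted p = 0.789 and 0.602), ANXA11 by 0.40 and -0.18 (adjusted p = 0.552 and 0.847), and ZCCHC24 by -0.33 and -0.24 (adjusted p = 0.56 and 0.727). The seminal plasma genes AWN, AQN-1, PSP-I and PSP-II, which follow DMBT1, lay at 2.14 to 2.24 on every array.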

How the data were processed

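Total RNA of proximal and distal small intestine was hybridised to Affymetrix porcine arrays, per the labels' protocols. The authors deposited log2 values, made with GCOS 1.2 and GCRMA, with limma also named, per the submitters' processing notes; the GCRMA version is not given in the sources used here. GCRMA shrinks dim probe sets to a floor, so folds that reach the floor are not well determined. The lowest value here was 2.14, and 39.7% of values lay under 2.5. Some dim probe sets repeated a value at a higher level, as LOX did at 4.85 and 4.86 on several arrays.

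The array's 124 controls were dropped from 24123 probe sets; of the rest 10069 had 1 gene, 198 several and 13732 none in the platform annotation, and 9961 gene IDs matched RefSeq. The 11538 probe sets above log2 5 on at least 4 arrays were fitted with limma 3.58.1 in R 4.3.3 (lmFit, eBayes, 4 group means over 16 arrays), with Benjamini-Hochberg adjustment over all 11538 and a threshold of 0.05, and checked on simulated data. Segments within piglets were compared by exact permutation. Whether samples came from separate animals beyond the title number is not labelled, and p-values measure the spread between these samples.

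The members and lists were chosen with earlier results of these data known. Genes named were the members, the 6 with the highest Pearson r to each member (over all arrays, and after subtracting group means), the tested genes of the 3 family lists, and called genes of the partner and regulator lists; others from the lists, the enterocyte markers and genes beside the members were chosen after their values were seen. A gene stands for its probe set of highest mean. An "at least" fold is against log2 5, where no array of the lower group exceeded it. Genes under log2 5 in a whole antibiotics group can pass the filter through control arrays, so their adjusted p and the counts that hold them are less secure. The title number was checked as a pairing by residual correlation between segments of the 7 piglets, 0.0293 to 0.526, above 0.1 in 5.

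Alternatives were no filter, a filter at log2 7, quantile normalization again, only the arrays compared, only piglets with both segments, the replicate block (statmod 1.5.0), array quality weights, the 5′ minus 3′ covariate, leaving out arrays, and averaging the probe sets annotated with SFTPD. No promoter or protein sequence was used here, so the intended motif search was not run.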

Additional observations from a re-analysis of the deposited data

Results flagged for a closer look

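No group of DMBT1 or SFTPD values held an array far from the others by Dixon's criterion. Of 174 groups of values checked for the members and the genes named by rule, 14 held such an array, where chance gives about 1 in 20. Among genes most like DMBT1 over all arrays, C4BPB was 6.05 in antibiotics distal piglet 85 (others 6.51 to 6.58) and FMO1 was 3.95 in antibiotics distal piglet 86 (others 3.01 to 3.06). C5, the gene most like SFTPD, was 9.36 in control proximal piglet 89 (others 10.75 to 10.94).

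Of the family genes, SCARA5 was 4.61 in antibiotics distal piglet 87 (others 2.64 to 2.92) and CLU was 5.45 in antibiotics distal piglet 85 (others 3.86 to 3.89). Of the partner and regulator genes, TLR2 was 6.40 in control proximal piglet 92 (others 4.83 to 5.00). C1QC was 9.96 in control distal piglet 88 (others 8.68 to 8.77) and 5.48 in antibiotics distal piglet 87 (others 7.37 to 7.61). CEBPA was 6.28 in antibiotics distal piglet 85 (others 5.76 to 5.83).

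Of the genes most like SFTPD after subtracting group means, LOX was 5.41 in control proximal piglet 89 (others all 4.85) and 5.54 in antibiotics distal piglet 87 (others 4.85 to 4.89). RUNX1T1 was 7.17 in control proximal piglet 89 (others 5.90 to 6.11). PPP4R3B was 12.26 in antibiotics proximal piglet 98 (others 11.55 to 11.60) and 12.70 in antibiotics distal piglet 87 (others 11.44 to 11.62). These genes were chosen for following SFTPD within groups, and SFTPD was highest in the same piglets there.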

How the results depend on the processing

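The DMBT1 segment difference in antibiotics piglets passed in each of 27 alternatives, with values of -2.41 to -1.92 and adjusted p of 6.06e-05 to 0.023; the replicate block changed no call of DMBT1 or SFTPD. The DMBT1 interaction passed in none of its alternatives (adjusted p 0.0910 to 0.895). The SFTPD segment difference in antibiotics piglets was -0.30 with array quality weights. With 1 array left out, DMBT1 and SFTPD ranged over -0.77 to -0.31 and 0.61 to 1.21 (segments, control), -2.41 to -1.92 and -0.30 to 0.97 (segments, antibiotics), -1.82 to -1.30 and -1.20 to 0.073 (interaction, reversed without antibiotics distal piglet 86), -4.51 to -4.04 and -5.36 to -4.09 (antibiotics, distal) and -2.90 to -2.41 and -4.64 to -3.85 (antibiotics, proximal). With 1 piglet left out the mean within piglets was -1.55 to -1.02 for DMBT1, 0.58 to 1.17 for SFTPD and -2.59 to -1.90 for DMBT1 minus SFTPD.

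Probe sets called ranged over 25 to 77 (segments, control), 353 to 680 (segments, antibiotics), 10 to 44 (interaction), 106 to 353 (distal) and 2 to 556 (proximal, 556 without control piglet 88) with 1 array left out. In the order interaction, distal and proximal, they were 11, 138 and 1 with no filter and 14, 159 and 55 with only piglets with both segments. With only the arrays compared they were 20 (segments, control), 430 (distal) and 0 (proximal, limma, with 913 at an unadjusted p under 0.05). The random replicate block gave 74 (segments, control) and 39 (interaction), the fixed one 9 (interaction). Array quality weights gave 80, 3008, 210, 1665 and 951 in the order of the ranges above. The 5′ minus 3′ covariate gave 80 (segments, control), 329 (segments, antibiotics) and 11 (proximal), and leaving out control distal piglets 83 and 88 gave 10 (interaction). The cause of these shifts was not tested. The 4 arrays per group and signal close to background in SFTPD with antibiotics limit what can be resolved.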
